A study of Mus musculus with 18 samples.

Results

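Hes5 and 9 further genes of the Notch pathway were followed through RNA-seq of astrocyte ribosomes (IP) and of whole hippocampus (input) of mice after intrahippocampal kainic acid (KA). The set holds the ligands Dll1, Jag1 and Dner, the receptors Notch1, Notch2 and Notch3, the nuclear factor Rbpj, and the target genes Hes5, Hes1 and Hey2. It was chosen by the level of Hes5, which was selected on its fall in the KA IP libraries and its excess in IP over input, so that for Hes5 these values are given as a description without a test, while the other 9 genes were named for their place in the pathway. All 10 symbols were found among the 55291 gene symbols of the 18 libraries, of which 40070 had at least 1 count. Each gene was compared between KA, AAV control and PBS within IP and within input, and between IP and input.

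All mice were wild-type male C57BL/6J, and every group carried AAV-DJ GfaABC1D-EGFP-Rpl10a, injected into the right CA3 at 6 weeks of age, so that ribosomes of cells in which the astrocytic GfaABC1D promoter was active bore an EGFP tag and could be pulled down with an antibody to GFP. The AAV control group had no second injection and was collected 2 weeks after the virus. In the KA group 50 nL of 20 mM KA, an agonist of kainate-type glutamate receptors that causes status epilepticus and later hippocampal sclerosis, was given into the right dentate gyrus 2 weeks after the virus, and RNA was collected 14 days later. The PBS group had PBS in place of KA. KA and AAV control therefore differed in age, in time since the virus and in a second surgery as well as in KA, and these cannot be told apart. Each of the 6 groups held 3 libraries, and each library pooled the right hippocampi of 3 to 4 mice, with the IP and the input of 1 homogenate taken as a pair.

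Notch signalling passes between touching cells. A ligand of the Delta or Jagged family on one cell binds a Notch receptor on its neighbour, the receptor is cut by ADAM proteases and gamma-secretase, and its freed intracellular domain enters the nucleus, joins the DNA-binding protein Rbpj and switches on Hes and Hey genes, whose products are basic helix-loop-helix repressors of proneural genes. In the hippocampus the pathway is best known for keeping neural stem cells of the dentate gyrus undifferentiated, and in development for the formation of astrocytes.

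In GRCm38 (mm10) Hes5 lies at chr4:154960923-154962371 on the plus strand, Hes1 at chr16:30064384-30067796 on the plus strand and Hey2 at chr10:30832359-30842801 on the minus strand. Rbpj lies at chr5:53466152-53657362 on the plus strand. Notch1 lies at chr2:26457903-26516663 on the minus strand, Notch2 at chr3:98013527-98150361 on the plus strand and Notch3 at chr17:32120820-32166852 on the minus strand. The ligand genes Dll1 (chr17:15367354-15376872), Jag1 (chr2:137081456-137116644) and Dner (chr1:84369839-84696221) all lie on the minus strand. Exons of Hes5 are overlapped by Gm20421 and exons of Notch3 by Gm17276, both transcribed from the opposite strand, and exons of Notch1 and Dll1 are also overlapped by genes of the opposite strand. Notch2 has 3 exon blocks within the span of Gm42820, which lies on the same strand, and Dner has 1 within that of Mir5126, on the opposite strand. The library kit does not mark strand, so that reads of these pairs cannot be told apart. Hes1, Hey2 and Jag1 overlap no other annotated gene.

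The promoters of the target genes Hes5 and Hey2 are shown because Rbpj binds a short motif there, and that of Rbpj itself is shown beside them. RefSeq windows from 250 bases before to 50 bases after the transcription start held 9 of the 10 genes, in 11 windows. The target gene Hes1 had no window, so its promoter was not searched for the motif. Letters of TGGGAA, the core of the Rbpj motif, or of its reverse complement TTCCCA are in capitals.
Hes5, chr4:154960673-154960972, plus strand: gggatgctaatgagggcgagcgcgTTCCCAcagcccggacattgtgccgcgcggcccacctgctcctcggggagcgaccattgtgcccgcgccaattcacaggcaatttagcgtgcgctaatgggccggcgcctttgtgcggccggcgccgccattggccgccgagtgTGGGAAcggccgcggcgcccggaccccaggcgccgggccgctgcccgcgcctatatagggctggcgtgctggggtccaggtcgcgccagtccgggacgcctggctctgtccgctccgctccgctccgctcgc
Hey2, chr10:30842734-30843033, minus strand: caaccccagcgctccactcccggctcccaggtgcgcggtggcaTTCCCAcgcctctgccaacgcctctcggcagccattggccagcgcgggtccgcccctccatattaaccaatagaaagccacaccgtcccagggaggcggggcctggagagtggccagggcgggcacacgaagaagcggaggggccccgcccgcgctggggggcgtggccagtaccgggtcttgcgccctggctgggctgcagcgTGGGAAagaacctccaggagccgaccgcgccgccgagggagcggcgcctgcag
Rbpj, chr5:53590096-53590395, plus strand: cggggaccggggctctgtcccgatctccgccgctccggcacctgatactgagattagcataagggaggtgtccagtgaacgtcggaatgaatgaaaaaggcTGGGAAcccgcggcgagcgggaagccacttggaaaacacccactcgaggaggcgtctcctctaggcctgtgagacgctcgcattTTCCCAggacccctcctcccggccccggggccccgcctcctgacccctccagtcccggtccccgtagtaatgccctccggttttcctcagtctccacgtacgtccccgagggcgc
Hes5 and Hey2 each held 2 copies of the longer motif GTGGGAA, counted on both strands, of which every copy contains a TGGGAA. Counted from 0 at the start, the copies ran from -226 to -220 on the minus strand and from -83 to -77 on the plus strand in Hes5, and from -207 to -201 on the minus strand and from -4 to 2 on the plus strand in Hey2. Of 32851 RefSeq promoter windows of mouse genes, 6.38% held at least 1 GTGGGAA and 0.256% held at least 2. Rbpj held 2 TGGGAA in the window shown and 1 in a second, overlapping window, and no GTGGGAA, where 25.6% of all windows held at least 1 TGGGAA and 3.79% at least 2. The windows of Notch1, Notch2, Notch3, Dll1, Jag1 and Dner held neither motif. CACNAG, a core bound by Hes proteins, was present in Notch1 (3 matches), Notch2 (1), Notch3 (2), Dner (2) and 1 of the 2 windows of Dll1 (1), and in 42.5% of all windows. These letter matches describe the windows and do not show binding.

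Libraries held 7991681 to 16032180 counts, with a median of 10313125. KA and AAV control replicate 3 were sequenced in another run than replicates 1 and 2, and all PBS libraries in a run of their own. Within KA and AAV control, replicate 3 differed from replicates 1 and 2 by 39.6 to 109 times counting noise, whereas replicates 1 and 2 differed from each other by 4.48 to 9.59 times. The input libraries carry the label of hippocampal astrocytes but held neuronal, oligodendrocyte and microglial markers as well as astrocytic ones, and they are described here as whole tissue. Levels are given as FPKM, fragments per kilobase of gene length, scaled to a common library total. A gene was called changed at an adjusted p below 0.05 and a fold change of at least 2, in edgeR's quasi-likelihood test across all genes above 1 FPKM in every compared library. Hes5, Hes1 and Dner passed that filter in every comparison, and Notch1, Notch2 and Rbpj in some. A second fit of all genes with a mean count of at least 10, added after the data were seen, held all 10 members and is used for the others.

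Hes5, the effector of Notch signalling that was the most abundant of the 10 genes in control astrocyte ribosomes, was close to 10 times lower in the KA IP libraries. In AAV control IP it was measured at 32.2, 24.9 and 21.1 FPKM in replicates 1 to 3 (26.0 ± 5.66, SD, n = 3), from 324 to 407 counts. In PBS IP it was measured at 28.7, 29.5 and 20.5 FPKM. In KA IP it was measured at 3.29, 2.04 and 2.08 FPKM (2.47 ± 0.714, SD, n = 3), from 29 to 50 counts. The highest KA library lay far below the lowest control library, and the controls overlapped each other. The log2 fold change was -3.33 (SE 0.25) against AAV control and -3.43 (SE 0.28) against PBS, 2 comparisons that share the KA libraries. Among the 316 genes that were called lower in KA IP than in AAV control IP and had at least 2 times the input FPKM in AAV control, Hes5 had the second largest drop. CT010467.2 came before it at -3.74, and Pantr1 at -3.30 and Ppp1r3g at -3.13 came after it, all as log2 fold changes. Since Hes5 was picked from this ranking, the values carry no test.

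**Figure D1:**
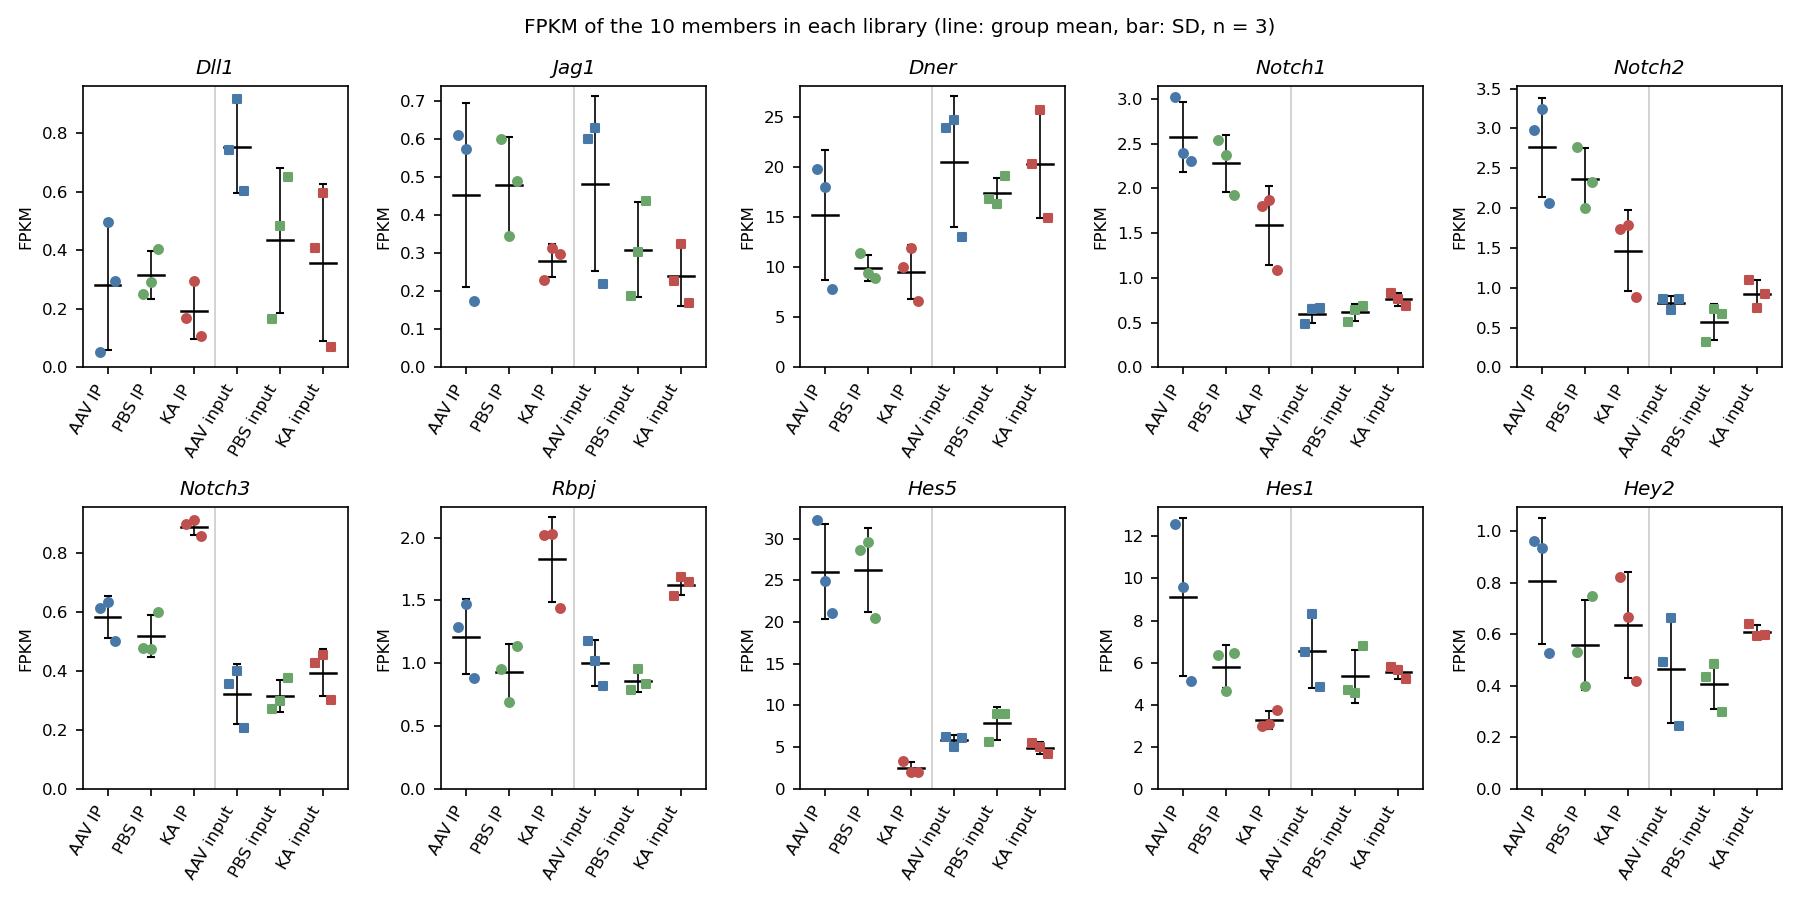
FPKM of the 10 genes in each of the 18 libraries, with 1 panel per gene (y axis, FPKM from 0) and the 6 groups on the x axis; points are libraries, circles IP and squares input, black lines group means and bars SD (n = 3). Hes5 in KA IP sits at 2.04 to 3.29 FPKM, below the 20.5 to 32.2 FPKM of both control IP groups, and the 3 KA input libraries of Rbpj sit above all control inputs.

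Cell type markers moved in the same IP libraries. The summed FPKM of 10 astrocyte markers was 2581 to 2833 in KA IP, against 5146 to 8296 in AAV control IP and 5649 to 9837 in PBS IP, and 4 of the 10 markers were called lower against each control. Of all genes tested, 11.5% were called against AAV control and 17.4% against PBS, in either direction. Without overlap of libraries, 7 of the 10 astrocyte markers lay below AAV control IP and 1 above it. Against PBS IP 5 lay below and 2 above. The summed FPKM of 5 oligodendrocyte markers was 1177 to 2265 in KA IP, against 199 to 876 in AAV control IP and 222 to 471 in PBS IP. Neuronal markers (5 genes) summed to 163 to 241 FPKM in KA IP and 82.2 to 120 FPKM in AAV control IP, and microglial markers (6 genes) to 19.8 to 39.0 and 8.38 to 13.2 FPKM. Endothelial markers (6 genes) went the other way in sum, at 4.07 to 5.64 FPKM in KA IP and 9.80 to 15.4 FPKM in AAV control IP. Gene by gene, 4 of 5 oligodendrocyte, 3 of 5 neuronal and 3 of 6 microglial markers lay above AAV control IP without overlap. Below it without overlap lay 1 microglial and 2 of 6 endothelial markers. Summed markers of oligodendrocyte precursors (4 genes, 8.23 to 12.9 FPKM in KA IP and 11.8 to 14.8 in AAV control IP), of mural cells (6 genes, 7.26 to 14.2 and 13.5 to 48.8 FPKM) and of neural stem cells and newborn neurons (6 genes, 4.82 to 6.80 and 4.10 to 5.83 FPKM) overlapped between KA IP and AAV control IP. Taken singly, 3 precursor markers, 2 mural markers and 1 of the last list lay below AAV control IP without overlap. The share of all genes without overlap was not computed, so nothing is read from these counts of markers. No marker was at 0 in all libraries of a group. The mean summed astrocyte level in KA IP was 0.418 of that in AAV control IP. Hes5 was chosen for its fall in these libraries, so its fall is not set against that of the markers. The part of the cell mixture in the values of Hes5 or of any other gene below was not tested, and fewer cells of a type and less RNA per cell cannot be told apart in these bulk libraries.

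**Figure D2:**
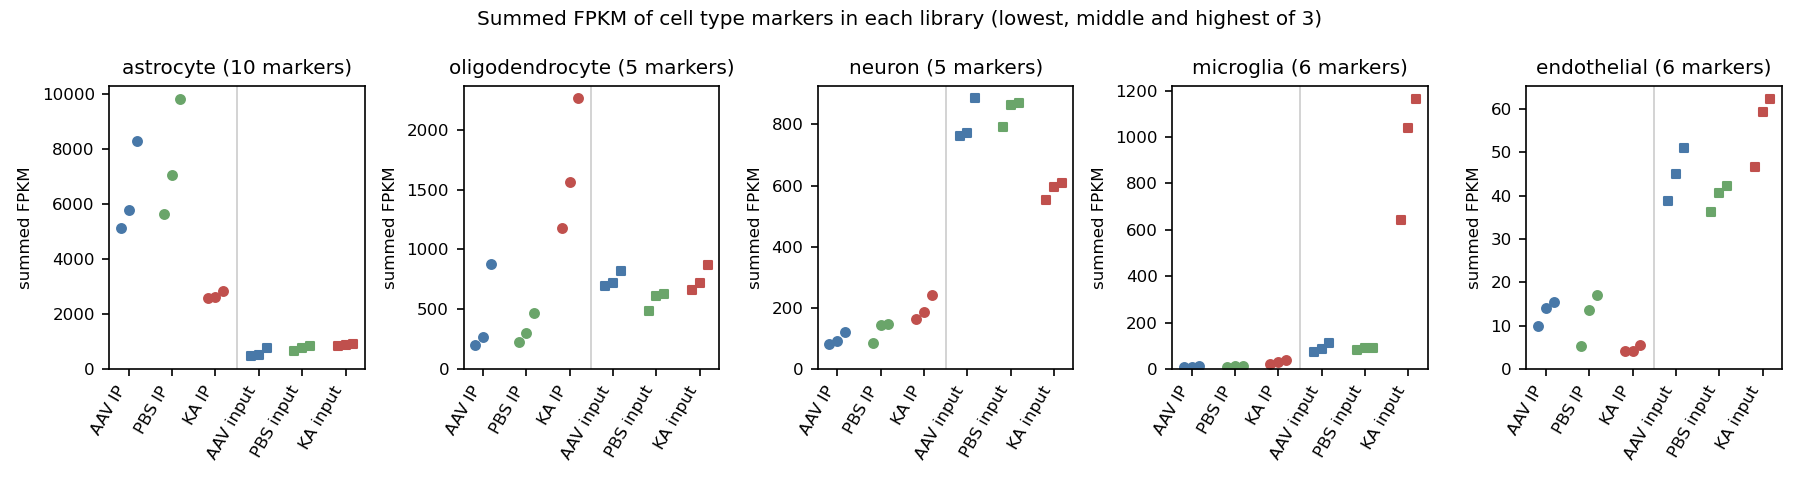
Summed FPKM (y axis, from 0) of astrocyte, oligodendrocyte, neuron, microglia and endothelial markers in each library by group (x axis), with circles for IP and squares for input; the 3 points of a group are its lowest, middle and highest library. In sum, astrocyte markers are lower in KA IP than in both control IP groups, oligodendrocyte markers are higher, and microglial markers are highest in KA input at 643 to 1162 FPKM.

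In whole hippocampus Hes5 differed far less between the groups. It was measured at 5.51, 5.01 and 4.17 FPKM in KA input, at 6.25, 5.07 and 6.12 FPKM in AAV control input and at 5.62, 9.0 and 8.94 FPKM in PBS input. KA and AAV control libraries overlapped, and every KA library lay below every PBS library. The log2 fold change was -0.26 (SE 0.19) against AAV control, given without a test since the AAV control input served in the choice of Hes5, and -0.69 (SE 0.19, adjusted p = 0.0214 by edgeR) against PBS, neither of which reached a 2-fold change. Between PBS input and AAV control input it was 0.45 (SE 0.21), also without a test. These inputs came from the homogenates whose IP libraries served to choose Hes5.

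Hes1, the second repressor of the family, was also lower in KA IP, but by less. It was measured at 3.00, 3.06 and 3.76 FPKM in KA IP, at 12.6, 9.60 and 5.13 FPKM in AAV control IP and at 6.34, 4.64 and 6.45 FPKM in PBS IP. All KA libraries lay below all control libraries, and AAV control spread widest. Against AAV control Hes1 fell by 1.38 on the log2 scale (SE 0.31, adjusted p = 0.0201 by edgeR), and it was the 1 gene called among the 3 of the other 9 that were tested, where 11.5% of all genes tested were called. In the fit of genes with a mean count of at least 10 it was again the 1 gene called of the 9, with 13.5% of all genes called. This contrast was used to choose Hes5, so nothing is read from these counts. The call was lost, with the direction kept, on leaving out KA replicate 1 (-1.28, adjusted p = 0.0866), KA replicate 2 (-1.30, adjusted p = 0.0843), AAV control replicate 1 (-1.11, adjusted p = 0.0635) or AAV control replicate 2 (-1.37, adjusted p = 0.0612, all by edgeR). Against PBS the log2 fold change was -0.81 (SE 0.22, adjusted p = 0.017 by edgeR), short of a 2-fold change. The adjusted p exceeded 0.05 in the fit of genes with a mean count of at least 10 (-0.63, adjusted p = 0.0526) and with no filter on FPKM (-0.60, adjusted p = 0.123). It also did so without KA replicate 1 (-0.69, adjusted p = 0.0817) or KA replicate 2 (-0.72, adjusted p = 0.0736, all by edgeR). In input Hes1 was measured at 5.77, 5.67 and 5.20 FPKM in KA, at 6.52, 8.33 and 4.84 FPKM in AAV control and at 4.69, 4.56 and 6.81 FPKM in PBS, with overlap between all groups and log2 fold changes of -0.23 (adjusted p = 0.622) and 0.05 (adjusted p = 0.854, both by edgeR).

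Hey2, a target whose promoter window matches that of Hes5 in its 2 copies of GTGGGAA, was low in every group. It was measured at 0.821, 0.669 and 0.417 FPKM in KA IP, at 0.963, 0.934 and 0.527 FPKM in AAV control IP and at 0.530, 0.400 and 0.747 FPKM in PBS IP, from 21 to 42 counts. The 3 groups overlapped. The log2 fold change in KA IP was -0.22 (SE 0.34, adjusted p = 0.686) against AAV control and 0.37 (SE 0.37, adjusted p = 0.436, both by edgeR) against PBS. In input its range was 0.242 to 0.661 FPKM over the 9 libraries, from 14 to 29 counts.

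Rbpj, the DNA-binding partner of the Notch intracellular domain, was higher after KA in both IP and input. It was measured at 2.02, 2.03 and 1.44 FPKM in KA IP, at 1.29, 1.47 and 0.882 FPKM in AAV control IP and at 0.955, 0.694 and 1.14 FPKM in PBS IP. In input it was measured at 1.53, 1.69 and 1.65 FPKM in KA, at 1.18, 1.02 and 0.817 FPKM in AAV control and at 0.788, 0.955 and 0.833 FPKM in PBS. In input every KA library lay above every control library, and in IP the lowest KA library fell just under the highest AAV control library. In KA IP Rbpj rose by 1.16 against PBS on the log2 scale (SE 0.20, adjusted p = 0.000704 by edgeR), and it was the 1 gene called of the 9 in the fit of genes with a mean count of at least 10, where 25.9% of all genes were called. With the filter on FPKM it was not among the 3 of the 9 that were tested, none of which was called, against 17.4% of all genes. The log2 fold change was 0.71 (SE 0.20, adjusted p = 0.0416) against AAV control in IP, 0.69 (SE 0.16, adjusted p = 0.0385) against AAV control in input and 0.88 (SE 0.15, adjusted p = 0.000627) against PBS in input, all by edgeR and all short of a 2-fold change. The 4 comparisons share the KA homogenates. The adjusted p against AAV control exceeded the threshold without KA replicate 1, 2 or 3 or AAV control replicate 1 or 2. It then ran from 0.0576 to 0.147 in IP and from 0.0927 to 0.153 in input (by edgeR). The direction was kept, with log2 fold changes of 0.51 to 0.83 in IP and 0.56 to 0.78 in input over all settings. Against PBS the adjusted p stayed at or below 0.004 in IP and 0.00728 in input.

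In input none of the 9 genes was called against AAV control, where 2.68% of all genes were called with the filter on FPKM (2 of the 9 tested) and 5.1% in the fit of genes with a mean count of at least 10 (all 9 tested), nor against PBS, where the shares were 5.18% and 9.78%. At an unadjusted p below 0.05 edgeR placed 1931 genes in the first comparison and 4333 in the second.

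The receptors Notch1 and Notch2 were lower in KA IP and Notch3 was higher, without reaching the criterion in these comparisons. Notch1 was measured at 1.80, 1.87 and 1.08 FPKM in KA IP, at 3.02, 2.40 and 2.30 FPKM in AAV control IP and at 2.54, 2.37 and 1.93 FPKM in PBS IP, and all KA libraries lay below all control libraries. Its log2 fold change was -0.66 (SE 0.20, adjusted p = 0.0587) against AAV control and -0.55 (SE 0.23, adjusted p = 0.0781, both by edgeR) against PBS. Notch2 was measured at 1.73, 1.79 and 0.880 FPKM in KA IP, at 2.98, 3.24 and 2.06 FPKM in AAV control IP and at 2.77, 2.0 and 2.32 FPKM in PBS IP, again without overlap. Its log2 fold change was -0.81 (SE 0.25, adjusted p = 0.0543) against AAV control and -0.54 (SE 0.24, adjusted p = 0.0852, both by edgeR) against PBS. With same-numbered KA and AAV control libraries as a replicate block the log2 fold change was -0.67 (adjusted p = 0.0199) for Notch1 and -0.83 (adjusted p = 0.00471, both by edgeR) for Notch2, also short of a 2-fold change. These libraries share a number and a run and are not known to be pairs. Notch3, which in brain is best known from smooth muscle and pericytes of vessels, was measured at 0.899, 0.914 and 0.857 FPKM in KA IP, above all of the 0.476 to 0.633 FPKM of the 6 control IP libraries. Its log2 fold change was 0.74 (SE 0.22, adjusted p = 0.0512) against AAV control and 0.96 (SE 0.26, adjusted p = 0.0107, both by edgeR) against PBS. Without KA replicate 1 the latter was 1.0 (adjusted p = 0.0319) and without PBS replicate 2 it was 1.01 (adjusted p = 0.0222, both by edgeR), which met the criterion. In input Notch1 ranged from 0.484 to 0.834 FPKM, Notch2 from 0.314 to 1.10 FPKM and Notch3 from 0.206 to 0.454 FPKM over the 9 libraries. The lowest adjusted p of a receptor in input was that of Notch2 in KA against PBS, with a log2 fold change of 0.66 (SE 0.26, adjusted p = 0.0693 by edgeR). It was 0.0159 with no filter on FPKM and 0.0494 without KA replicate 2, both with a change of less than 2-fold.

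None of the ligands met the criterion between KA and a control with all libraries in the fit. Dner, a non-canonical ligand made mainly by neurons, was measured at 10.1, 11.9 and 6.66 FPKM in KA IP, at 19.8, 18.01 and 7.83 FPKM in AAV control IP and at 11.4, 9.42 and 8.94 FPKM in PBS IP. Replicate 3 was the lowest in each of the 3 IP groups, and the groups overlapped. The log2 fold change was -0.61 (SE 0.31, adjusted p = 0.218) against AAV control and -0.08 (SE 0.21, adjusted p = 0.792, both by edgeR) against PBS. KA was lower than AAV control at each of the 3 replicate numbers, which are not known to mark pairs. With the number as a replicate block the value was -0.55 (SE 0.17, adjusted p = 0.0389 by edgeR), short of a 2-fold change. Without AAV control replicate 3 it was -0.89 (adjusted p = 0.00999 by edgeR). In input Dner stood at 14.9 to 25.7 FPKM in KA, 13.0 to 24.7 FPKM in AAV control and 16.3 to 19.2 FPKM in PBS, with log2 fold changes of -0.01 (SE 0.24) and 0.20 (SE 0.14). Dll1, the Delta ligand, ranged from 0.0511 to 0.496 FPKM in the IP libraries (2 to 20 counts) and from 0.0697 to 0.918 FPKM in input (3 to 37 counts). Jag1, the Jagged ligand, ranged from 0.174 to 0.611 FPKM in IP (13 to 56 counts) and from 0.168 to 0.629 FPKM in input (10 to 35 counts). In KA input against AAV control input the log2 fold change of Dll1 was -1.10 (SE 0.54, adjusted p = 0.309) and that of Jag1 was -0.98 (SE 0.45, adjusted p = 0.266, both by edgeR), values whose errors are wide at these counts. Without AAV control replicate 3 the value of Jag1 was -1.31 (adjusted p = 0.0286 by edgeR) and met the criterion.

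**Figure D3:**
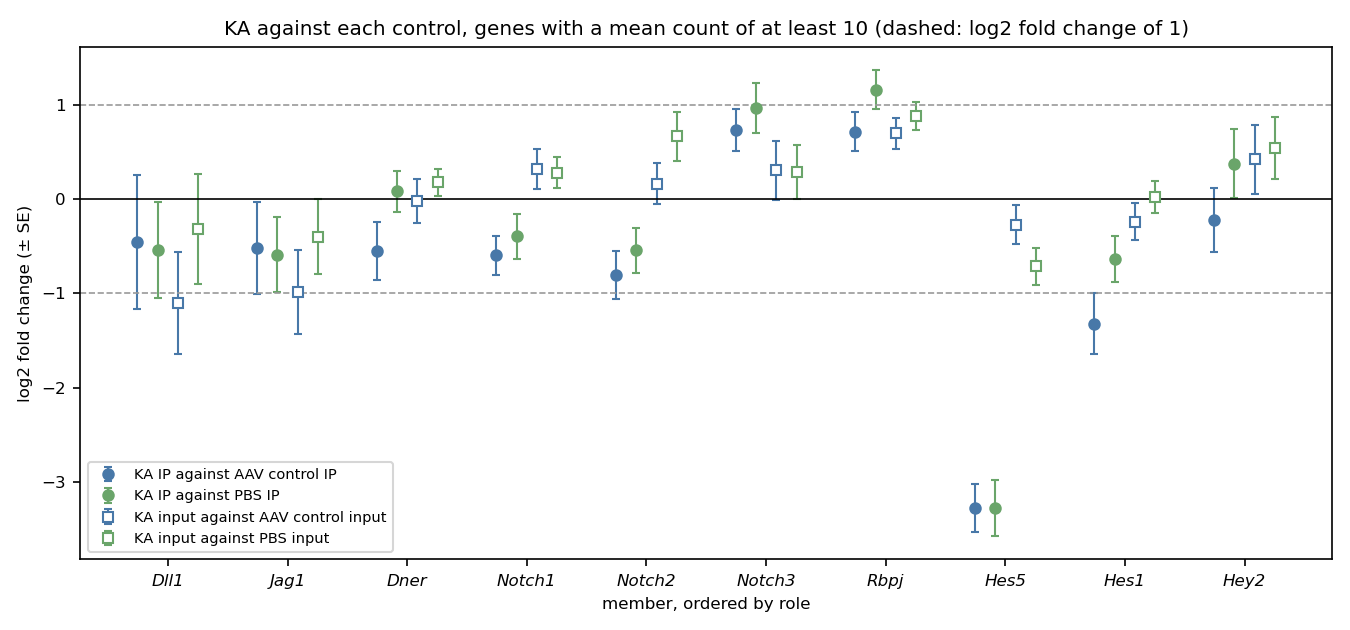
Log2 fold change (y axis, with SE bars) of the 10 genes, ordered by role on the x axis, for KA against each control in IP (filled circles) and input (open squares), from the edgeR fit of genes with a mean count of at least 10; dashed lines mark a log2 fold change of 1 in either direction. Hes5 lies near -3.27 in both IP comparisons, Hes1 is below 0 in IP, and Rbpj is above 0 in all 4 comparisons.

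Between PBS and AAV control none of the 9 other genes was called. In IP edgeR called none of them, with 0% of all genes called with the filter on FPKM and 0.00617% in the fit of genes with a mean count of at least 10. In input the shares were 0% and 0%. At an unadjusted p below 0.05 edgeR placed 1162 genes in IP and 880 in input, and DESeq2 called 16 and 14 genes, limma 0 and 0. Without AAV control replicate 3, the library of another run than replicates 1 and 2, edgeR called 554 and 350 of all genes. In that fit Hes1 (-0.85, adjusted p = 0.0398) and Dner (-0.83, adjusted p = 0.0306) were lower in PBS IP than in AAV control IP. Dner was also lower in input (-0.40, adjusted p = 0.00183, all by edgeR), all short of a 2-fold change. Over 15 settings in IP, Hes1 ran from -0.85 to -0.31 and Dner from -0.83 to -0.32. Hes5 had a log2 difference of 0.08 (SE 0.26) in IP, PBS less AAV control. The PBS libraries were sequenced in a run of their own, and the run and the group cannot be told apart.

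The ratio of IP to input FPKM in each homogenate compares the tagged ribosomes with whole tissue. Hes5 had ratios of 5.16, 4.90 and 3.44 in AAV control, 5.10, 3.28 and 2.29 in PBS, and 0.598, 0.408 and 0.497 in KA. It was above 1 in all 6 control homogenates and below 1 in all 3 KA homogenates. As log2 fold changes of IP against input these were 2.30 (SE 0.21), 1.91 (SE 0.25) and -0.77 (SE 0.23), given without a test. Hes1 followed at a lower level, with 1.93, 1.15 and 1.06 in AAV control, 1.35, 1.02 and 0.948 in PBS, and 0.519, 0.541 and 0.724 in KA.

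By the mean over homogenates Notch1 and Notch2 had higher IP to input ratios than Notch3 in both control groups, although Notch3 lay just above Notch2 in AAV control replicate 3. Notch1 had ratios of 6.23, 3.70 and 3.47 in AAV control, 4.98, 3.66 and 2.79 in PBS and 2.17, 2.44 and 1.57 in KA, and was called higher in IP in all 3 conditions, by 2.23 (SE 0.23, adjusted p = 0.000309), 1.97 (SE 0.23, adjusted p = 3.7e-06) and 1.34 (SE 0.18, adjusted p = 0.000518, all by edgeR) on the log2 scale. Notch2 had ratios of 3.47, 4.51 and 2.39 in AAV control, 8.83, 2.73 and 3.44 in PBS and 1.57, 2.39 and 0.958 in KA. It was called in AAV control (log2 1.89, SE 0.22, adjusted p = 0.000483) and PBS (log2 2.10, SE 0.26, adjusted p = 5.83e-06) and had a log2 difference of 0.94 (SE 0.24, adjusted p = 0.0156, all by edgeR) in KA, which became 1.2 (adjusted p = 0.000432 by edgeR) and a call without KA replicate 3. Notch3 had ratios of 1.58 to 2.43 in AAV control, 1.59 to 1.77 in PBS and 2.01 to 2.83 in KA. It was called in KA (log2 1.48, SE 0.22, adjusted p = 0.000868) and AAV control (log2 1.03, SE 0.31, adjusted p = 0.0324), and its log2 difference in PBS was 0.75 (SE 0.30, adjusted p = 0.0478, all by edgeR). The AAV control call of Notch3 was lost on leaving out AAV control replicate 1 (1.04, adjusted p = 0.221), replicate 2 (1.21, adjusted p = 0.146) or replicate 3 (0.91, adjusted p = 0.0128, by edgeR), the last by falling under a 2-fold change.

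Dner was lower in IP than in input in all 9 homogenates, with ratios of 0.601 to 0.828 in AAV control, 0.467 to 0.677 in PBS and 0.446 to 0.496 in KA, and log2 differences of -0.29 (SE 0.34, adjusted p = 0.538), -0.66 (SE 0.18, adjusted p = 0.00642) and -0.88 (SE 0.21, adjusted p = 0.0127, all by edgeR). Rbpj had ratios of 0.726 to 1.44 over the 9 homogenates and a log2 difference of 0.38 (SE 0.14, adjusted p = 0.0693 by edgeR) in KA. Hey2 had ratios of 0.698 to 2.49 and Jag1 of 0.798 to 3.19. Dll1 had ratios of 0.0689 to 1.55, and its log2 difference in AAV control was -1.25 (SE 0.61, adjusted p = 0.151). With IP and input paired by homogenate as a replicate block that value was -1.35 (adjusted p = 0.0214, both by edgeR) and met the criterion, which raised the members called in AAV control from 3 to 4. Without AAV control replicate 3 it was -1.40 (adjusted p = 0.0215 by edgeR) and also met the criterion. Apart from the block, the log2 differences of IP against input did not use this pairing. With the block in AAV control, Hey2 (0.99, adjusted p = 0.0183), Rbpj (0.41, adjusted p = 0.0466) and Hes1 (0.57, adjusted p = 0.031, all by edgeR) stayed short of a 2-fold change. Over all settings there the adjusted p reached 0.43 for Hey2, 0.603 for Rbpj and 0.699 for Hes1 (by edgeR, DESeq2 or limma).

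Counted over the 9 genes, 3 were called between IP and input in AAV control, 2 in PBS and 2 in KA in the fit of genes with a mean count of at least 10. All of them were receptors with more in IP. The shares of all genes called were 27.3%, 31.2% and 17%. With the filter on FPKM, which left 2, 2 and 3 of the 9, none was called, against 26.2%, 27% and 12.6% of all genes.

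**Figure D4:**
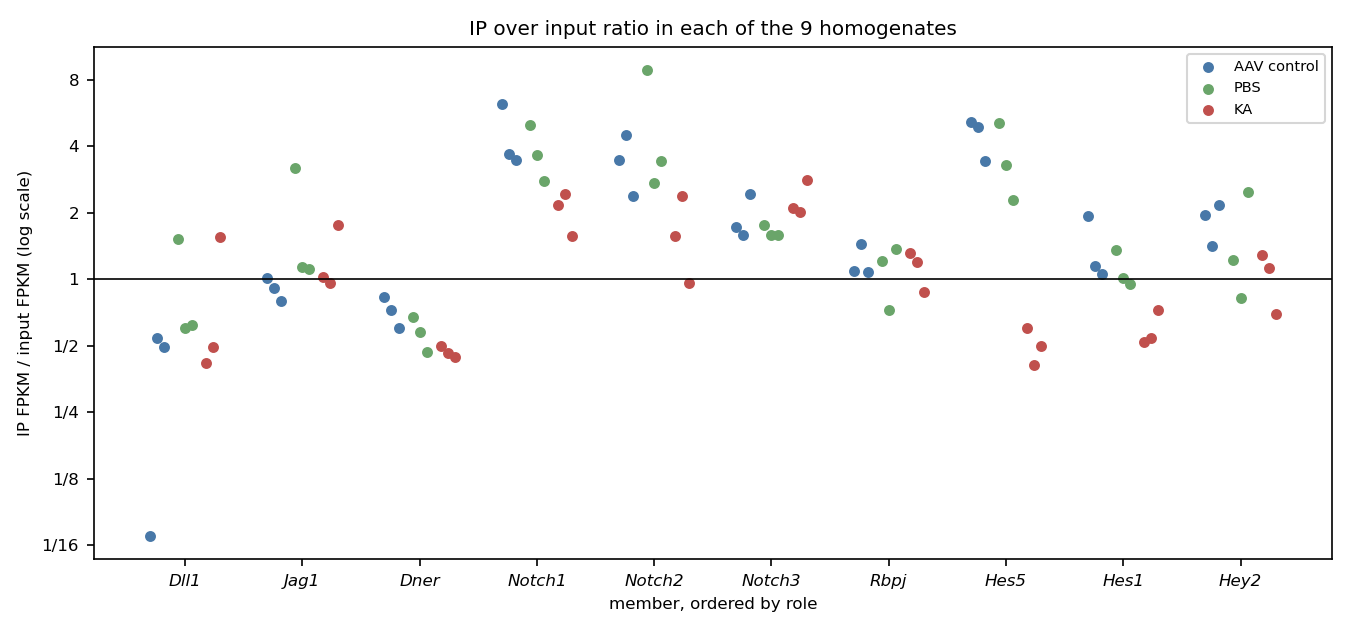
Ratio of IP FPKM to input FPKM (y axis, log scale) of the 10 genes, ordered by role on the x axis, with 1 point for each of the 9 homogenates coloured by condition; the line marks a ratio of 1. Hes5 is at 2.29 to 5.16 in the 6 control homogenates and at 0.408 to 0.598 in the 3 KA homogenates, and Dner is below 1 in all 9.

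Whether KA acted alike in IP and in input was tested as the difference between its log2 fold changes. For Hes5 that difference was -3.06 (SE 0.29) with AAV control and -2.75 (SE 0.35) with PBS as baseline, given without a test. For Hes1 it was -1.13 (SE 0.39, adjusted p = 0.0773) with AAV control and -0.86 (SE 0.26, adjusted p = 0.0262, both by edgeR) with PBS. With the homogenates as a replicate block the first value was -1.11 (adjusted p = 0.00534 by edgeR) and met the criterion. It also did so without AAV control replicate 3 (-1.23, adjusted p = 0.0106), as did the second without KA replicate 3 (-1.01, adjusted p = 0.017) or PBS replicate 3 (-1.0, adjusted p = 0.0274, all by edgeR). For Notch2 the difference was -0.97 (SE 0.34, adjusted p = 0.0998) with AAV control, and with PBS it was -1.21 (SE 0.37, adjusted p = 0.0277, both by edgeR) and met the criterion, in a fit in which the median of all genes stood at -0.11. This Notch2 value was not rechecked by leaving out single libraries. In PBS input Notch2 stood at 0.314 FPKM (34 counts) in replicate 1, against 0.733 and 0.675 FPKM in replicates 2 and 3. Notch1 had differences of -0.91 (SE 0.29, adjusted p = 0.0696) and -0.68 (SE 0.29, adjusted p = 0.104), and Rbpj of 0.02 (SE 0.25, adjusted p = 0.972) and 0.28 (SE 0.23, adjusted p = 0.403, all by edgeR). The other 5 genes had adjusted p-values from 0.163 to 0.86. With AAV control as baseline the adjusted p of some genes crossed 0.05 between settings. It ran from 0.00849 to 0.116 for Notch1, 0.0272 to 0.101 for Notch2 and 0.00812 to 0.659 for Dner (by edgeR, DESeq2 or limma). Their differences ran from -0.94 to -0.88, -1.0 to -0.94 and -0.64 to -0.47, and none of these was called. In the fit of genes with a mean count of at least 10, 0 of the 9 genes were called by edgeR with AAV control as baseline, where 7.65% of all genes were called and 3601 genes had an unadjusted p below 0.05, and 1 of the 9 with PBS, where the share was 14.8%. With the filter on FPKM none of the 2 genes tested was called with either baseline, against 9.41% and 13.9% of all genes.

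On the FPKM scale, which accounts for gene length, Hes5 had the highest level of the 10 genes in AAV control IP and PBS IP. It was followed in AAV control IP by Dner at 15.2 ± 6.46, Hes1 at 9.11 ± 3.76, Notch2 at 2.76 ± 0.618, Notch1 at 2.57 ± 0.387 and Rbpj at 1.21 ± 0.300 FPKM (SD, n = 3), with Hey2, Notch3, Jag1 and Dll1 below 1 FPKM. The libraries of Hes5 and Dner did not overlap there, whereas those of Dner and Hes1 and of Notch2 and Notch1 did. In KA IP the order was Dner at 9.55 ± 2.66, Hes1 at 3.27 ± 0.423, Hes5 at 2.47 ± 0.714, Rbpj at 1.83 ± 0.338, Notch1 at 1.59 ± 0.436 and Notch2 at 1.47 ± 0.510 FPKM (SD, n = 3). There Hes1 and Hes5 overlapped, as did Rbpj, Notch1 and Notch2, and Dner stood apart. In all 3 input groups Dner had the highest level, and Hes5 and Hes1 came next.

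Of 74 other genes of the pathway, drawn up as lists of ligands, receptor processing, nuclear cofactors, turnover, targets and proneural factors, 49 were tested in KA IP against AAV control IP. Of these 3 were called higher and 1 lower, which is 8.16% where 11.5% of all genes were called. Against PBS IP 50 were tested, with 3 higher and 5 lower, or 8 of 50 where the share of all genes was 17.4%. The median log2 fold change of the list was -0.07 against AAV control and -0.19 against PBS, with -0.02 and -0.01 over all genes tested. Against AAV control none was called of 8 tested genes of receptor cleavage, which include gamma-secretase, of 4 of receptor glycosylation, of 6 coactivators, of 10 corepressors and of 12 of ligand and receptor turnover. With 11.5% of all genes called, nothing is read from lists this short. Against PBS, Lfng (glycosylation), Spen (corepressor), Itch and Dtx3 (turnover) were called lower, as described below.

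The genes called in the same direction against both controls were Neurod1, Neurod2 and Ccnd1, which rose, and Neurod6, which fell. Their calls were not rechecked by leaving out single libraries. Neurod1, a transcription factor of newborn granule neurons, was measured at 10.4, 10.4 and 8.06 FPKM in KA IP and at 1.15 to 3.60 FPKM in the 6 control IP libraries, and rose by 1.95 (SE 0.21, adjusted p = 0.00129) against AAV control and 1.93 (SE 0.29, adjusted p = 0.000856, both by edgeR) against PBS on the log2 scale. Neurod2, a related factor of excitatory neurons, was measured at 15.04 to 28.4 FPKM in KA IP and 4.15 to 10.3 FPKM in the control IP libraries, with log2 fold changes of 1.43 (SE 0.34, adjusted p = 0.025) and 1.21 (SE 0.26, adjusted p = 0.00536, both by edgeR). Ccnd1, the cyclin of G1 phase, was measured at 11.7, 9.20 and 5.44 FPKM in KA IP, 2.66 to 3.53 FPKM in AAV control IP and 1.21 to 1.88 FPKM in PBS IP, with log2 fold changes of 1.57 (SE 0.28, adjusted p = 0.0081) and 2.41 (SE 0.26, adjusted p = 0.00012, both by edgeR). For these 3 genes no control library reached a KA library. In input their log2 fold changes in KA against AAV control were 0.12 (Neurod1), -0.35 (Neurod2) and 0.77 (Ccnd1). Against PBS they were 0.43, 0.19 and 0.50, and none was called in input. In IP against input, Neurod1 and Neurod2 were called lower in AAV control (log2 -1.99 and -2.47) and in PBS (-1.73 and -1.75). Neurod6 was also called lower in both (-2.58 and -2.01), and Ccnd1 in PBS (-1.66) but not in AAV control (-0.49).

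Neurod6, a factor of pyramidal neurons, was measured at 3.80, 3.84 and 3.82 FPKM in KA IP and 9.10 to 27.8 FPKM in the control IP libraries, and fell by 1.66 (SE 0.35, adjusted p = 0.0157) and 2.43 (SE 0.23, adjusted p = 5.58e-05, both by edgeR). It was also lower in KA input, at 31.7 to 45.1 FPKM against 67.7 to 109 FPKM in the control inputs. Neuronal markers were higher in the same KA IP libraries (163 to 241 FPKM against 82.2 to 120 in AAV control). In input their sum was lower, at 554 to 609 FPKM in KA, 761 to 885 in AAV control and 793 to 870 in PBS. The part of these markers in the values of the Neurod genes was not tested.

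**Figure D5:**
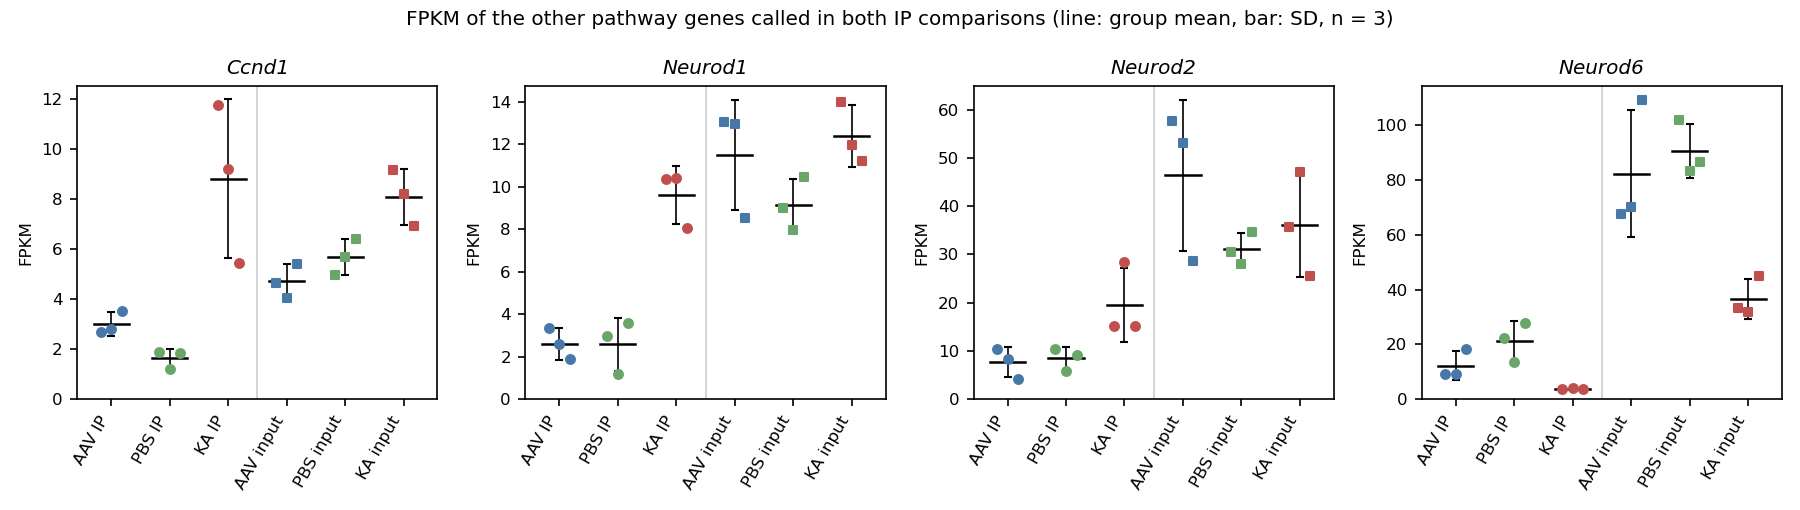
FPKM (y axis, from 0) of Ccnd1, Neurod1, Neurod2 and Neurod6 in each library by group (x axis), with circles for IP and squares for input, black lines for group means and bars for SD (n = 3). In IP the KA libraries of Ccnd1, Neurod1 and Neurod2 lie above those of both controls, and those of Neurod6 lie below them.

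Against PBS alone Lfng, Spen, Itch and Dtx3 were called lower in KA IP, and in input Fabp7 was called higher against both controls and Neurod6 lower against PBS, genes named here after their values were seen. Lfng, a glycosyltransferase that modifies Notch receptors, was measured at 2.98, 3.53 and 2.88 FPKM in KA IP, 5.73, 6.01 and 4.95 FPKM in AAV control IP and 9.77, 6.68 and 6.92 FPKM in PBS IP, with a log2 fold change against PBS of -1.32 (SE 0.22, adjusted p = 0.0014 by edgeR). Fabp7, a fatty acid binding protein of radial glia and astrocytes and a reported Notch target, was measured at 91.9 to 155 FPKM in KA input, 50.7 to 77.1 FPKM in AAV control input and 30.1 to 40.4 FPKM in PBS input. It rose by 1.06 (SE 0.20, adjusted p = 0.0255) against AAV control and 1.80 (SE 0.15, adjusted p = 1.4e-05, both by edgeR) against PBS on the log2 scale. Astrocyte markers were higher in the same KA input libraries, where 10 of them summed to 846 to 897 FPKM, against 457 to 777 FPKM in AAV control input and 669 to 824 FPKM in PBS input, and 2 and 3 of the 10 were called higher. Of all genes tested, 2.68% and 5.18% were called in these comparisons. The part of the astrocyte markers in the value of Fabp7 was not tested.

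The genes whose pattern over the 6 group means was most like that of Hes5, among 15997 genes above 1 FPKM in at least 1 group, were C030018K13Rik, Pantr1, Cyp4f15, Gm11627 and Gm13689. Likeness was the root mean square difference of centred log2(FPKM + 1), which was 0.246 for C030018K13Rik, 0.275 for Pantr1, 0.280 for Cyp4f15, 0.308 for Gm11627 and 0.319 for Gm13689. Pantr1, a long noncoding RNA, had means of 13.1 FPKM in KA IP, 136 FPKM in AAV control IP and 134 FPKM in PBS IP. Cyp4f15, a cytochrome P450, had means of 1.23, 12.8 and 11.97 FPKM in the same groups. Among the pathway members the nearest to Hes5 was Notch2 at place 1751, followed by Hes1 at place 2002 and Notch1 at place 2110, while Dner stood at place 10795 and Rbpj at place 11019.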

How the data were processed

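RNA from GFP immunoprecipitates and inputs of 9 homogenates was sequenced on an Illumina instrument from unstranded NEBNext Ultra II libraries. Per the labels, the authors used STAR, featureCounts and edgeR with the mm10 build; versions and the gene annotation are not given in the sources used here. The deposited counts per gene are whole numbers and not normalized, and the deposited FPKM values are the authors' counts scaled to the library total and per kilobase of gene length. Members and lists were chosen with earlier results of these data known.

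Counts were tested with edgeR 4.0.16 (R 4.3.3; quasi-likelihood, robust, TMM, Benjamini-Hochberg over all genes tested) on genes above 1 FPKM in every compared library (the study also used FPKM above 1). Genes were called at an adjusted p below 0.05 with a log2 fold change of 1 or more in size. The second fit kept genes with a mean count of at least 10. FPKM values were described and not tested. The functions were tested on simulated data. SE is the log2 fold change over the square root of F. Each library pools 3 to 4 mice, nothing in the sources used here says whether a mouse entered more than 1, and p-values measure the spread between these pools. Libraries held 7991681 to 16032180 counts, and counting error alone is wide for genes under about 20 counts. No 2 libraries of a group agreed within counting noise.

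Genes named beside the 10 members were pathway genes called in the same direction in KA IP against both controls, up to 12, and the 5 genes most like Hes5. Lfng, Spen, Itch, Dtx3 and Fabp7 did not meet this rule and were named after their values were seen. One listed gene is not reported here. Residuals of same-numbered KA and AAV control libraries correlated at 0.365, 0.560 and 0.558 in IP and 0.374, 0.474 and 0.571 in input, and those of IP and input of 1 homogenate at 0.518, 0.527 and 0.669 (KA), 0.527, 0.752 and 0.761 (AAV control) and 0.337, 0.172 and 0.239 (PBS). The replicate block used both. No source used here pairs KA with AAV control by number. Same-numbered libraries share a run, which also set replicate 3 apart, and correlations across numbers were not computed. PBS shares only numbers with the other groups. Alternatives were RLE normalization, DESeq2 1.42.0, limma-voom (limma 3.58.1), other filters, the replicate block, the sequencing run as covariate or run 1 alone, and leaving out each library. They were followed for the 10 members only. Calls of other named genes, such as Lfng and Fabp7, were not rechecked by leaving out libraries, with the block or with other tools. On mean counts, libraries were not left out for the KA effect in IP against input or for PBS against AAV control. Coordinates are those of GENCODE M21 and promoter windows those of RefSeq (GRCm38.p6).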

Additional observations from a re-analysis of the deposited data

Results flagged for a closer look

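The difference between the IP and the input response to KA passed its test for Notch2 and, with at least 1 baseline, for 4 named pathway genes. These 4 were named because they were called in KA IP against both controls, and the test uses the same KA IP libraries, so that their values are not independent of that choice. For Notch2 the difference was -1.21 on the log2 scale with PBS as baseline, in the fit of genes with a mean count of at least 10, not rechecked by leaving out single libraries. With AAV control as baseline it was 1.85 for Neurod1 and 1.8 for Neurod2, while Ccnd1 at 0.81 (adjusted p = 0.143) and Neurod6 at -0.47 (adjusted p = 0.598, both by edgeR) did not pass. With PBS as baseline it was 1.91 for Ccnd1, 1.5 for Neurod1, 1.01 for Neurod2 and -1.12 for Neurod6. Groups of 3 libraries were not screened for single distant samples.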

How the results depend on the processing

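The 184 alternative values of Hes5 stayed within the spread between replicates or, in KA input against PBS input, short of the criterion. The direction turned only in PBS IP against AAV control IP, where the value of 0.08 in the report ran from -0.13 to 0.29. Those of KA against the controls ran from -3.54 to -3.11 for KA IP against AAV control IP, -3.63 to -3.06 against PBS IP, and -0.86 to -0.57 for KA input against PBS input (adjusted p from 0.00592 to 0.106 by edgeR, DESeq2 or limma). Of 839 values of the other members 783 kept their direction and call. Counts of the 9 other members called changed as follows, and the cause was not tested. In KA IP against AAV control IP the count of 1 ranged from 0 to 1 on leaving out single libraries, with 0 without KA replicate 1 or 2 or AAV control replicate 1 or 2. In KA IP against PBS IP the count of 0 became 1 with a mean count of at least 10, with no filter on FPKM, with FPKM above 1 in at least 3 libraries and with the replicate block on mean counts, and 0 to 2 on leaving out libraries. In KA input against AAV control input it ranged from 0 to 1, the 1 being Jag1 (-1.31, adjusted p = 0.0286 by edgeR) without AAV control replicate 3. Between IP and input the count of 0 became, under the same 4 settings in that order, 3, 2, 2 and 4 in AAV control (0 to 3 leaving out libraries), 2, 2, 2 and 2 in PBS (0 to 2) and 2, 2, 1 and 2 in KA (0 to 3). The receptors called under these settings are left out by the FPKM filter, and the fourth call in AAV control was Dll1, which of these settings only the block called. For the KA effect in IP against input with AAV control it became 1 with DESeq2, with the replicate block on either filter, with the run as covariate and with run 1 alone (0 to 1 leaving out libraries), and with PBS it became 1 under the same 4 settings (0 to 1). Among the other members directions turned for Dner, Hes1, Dll1, Notch1, Jag1 and Rbpj, none of which was called in the comparisons concerned. Dner in KA IP against PBS IP was 0.08 with a mean count of at least 10, 0.11 with no filter, 0.01 with at least 3 libraries, 0.08 with the block on mean counts and -0.23 to 0.23 leaving out libraries (on mean counts 0.17 and 0.15 without PBS replicates 1 and 2, and with the FPKM filter 0.09 without KA replicate 3). Dner in KA input against AAV control input was 0.01 with limma, with the replicate block and with the run as covariate, and -0.22 to 0.13 leaving out libraries (on mean counts 0.12 without KA replicate 3, 0.07 and 0.12 without AAV control replicates 1 and 2, and with the FPKM filter -0.21 without AAV control replicate 3). Leaving out single libraries also gave -0.08 to 0.19 for Hes1 (0.0 and -0.05 among them) and -0.87 to 0.14 for Dll1 (0.02 among them, from -0.32 in the report) in KA input against PBS input, -0.26 to 0.06 for Notch1 in PBS IP against AAV control IP and -0.07 to 0.15 for Jag1 between IP and input in AAV control. Rbpj in the AAV control baseline was -0.01 with at least 3 libraries and -0.08 without AAV control replicate 3. In KA IP against PBS IP, whose samples share only a number, the replicate block left the count of called members at 0, and at 1 on mean counts. At 2 to 56 counts a library, Dll1 and Jag1 allow no firm statement.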
